A study of Mus musculus with 4 samples.

Results

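The main basal cells were 917 of 8880 cells (10.3%) from the mouse epididymis and vas deferens, and they are the largest of the basal cell populations that the authors named in their table of cells. Members were the cells that carry this 1 name, and no threshold on a gene chose them, although the name itself came from clustering the same counts. Of these cells, 189 came from the caput, 306 from the corpus, 131 from the cauda and 291 from the vas deferens, and 847 had fallen into a single one of the 21 clusters that the authors first made of all cells. Another 495 basal cells have other names and were left out: 315 of a population with few UMIs (unique molecular identifiers, each counting 1 captured transcript), 165 named for high *Notch2* and 15 named for macrophages.

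Tissue came from male FVB/NJ mice of 10–12 weeks, without treatment, and each region was 1 pool from 4 animals (8 epididymides) from which 1 single-cell library was made with 10x droplets and sequenced at the 3′ ends of transcripts. The 4 libraries are therefore 4 regions with no replicate of any. By the dissection that the paper describes, the same 8 epididymides were cut into the 4 regions. The libraries thus share their 4 animals, and an n of 4 counts regions and not separate animals. Main basal cells held 5098543 UMIs, with a median of 5654 UMIs and 1806 genes per cell. The compared types were principal cells (3956 cells, median 934.5 UMIs), clear cells (348 cells, median 4430) and stromal cells (2222 cells, median 2716.5). By library, main basal cells held 1217760, 1975012, 776446 and 1129325 UMIs in the order caput, corpus, cauda and vas deferens, the order in which every set of 4 values is given. The clear cells of the vas deferens were the thinnest group, with 38 cells and 149811 UMIs.

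The epididymal tubule is lined by a pseudostratified epithelium in which principal cells secrete and absorb proteins of the lumen, clear cells acidify it, and basal cells sit on the basement membrane. In many epithelia basal cells are held to that membrane by hemidesmosomes that tie keratins 5 and 14 to a laminin, and they depend on the transcription factor p63. They are known as progenitors in the airway, prostate and skin, and antibodies against macrophage antigens have been reported to stain those of the epididymis.

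The 5 genes taken as markers of the population were found in every library. Levels are UMIs of a gene per 1000000 UMIs of the cell type (UPM), and a mean is over the 4 libraries with equal weight, with the SD between these regions. *Krt14* (chr11:100203162-100207510, GRCm38), a keratin of basal layers, had 2193, 2984, 3759 and 2973 UPM, a mean of 2977 ± 640 (SD, n = 4). The compared types ranged from 2.14 UPM to 227 UPM, the latter in clear cells of the vas deferens, and no library overlapped. *Krt5* (chr15:101707069-101712905), its keratin partner, had 490, 256, 155 and 251 UPM, and the highest value elsewhere was 20 UPM. *Sfn* (chr4:133600556-133602168), which encodes the 14-3-3 protein stratifin, had 1465, 2222, 2307 and 1278 UPM, above the highest of 211 UPM in clear cells of the cauda. *Egfl6* (chrX:166523007-166585716), a secreted matrix protein, had 214, 122, 138 and 118 UPM against at most 13.9 UPM in principal cells of the caput. For each of these 4 genes the lowest main basal library lay above the highest library of any compared type. *Apoe* (chr7:19696244-19701310), the lipid carrier apolipoprotein E, had 26632, 22913, 16761 and 14166 UPM. It was the least exclusive of the markers, since stromal cells had 3297, 2041, 2343 and 8138 UPM and macrophages of all libraries together had 23768 UPM.

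**Figure D1:**
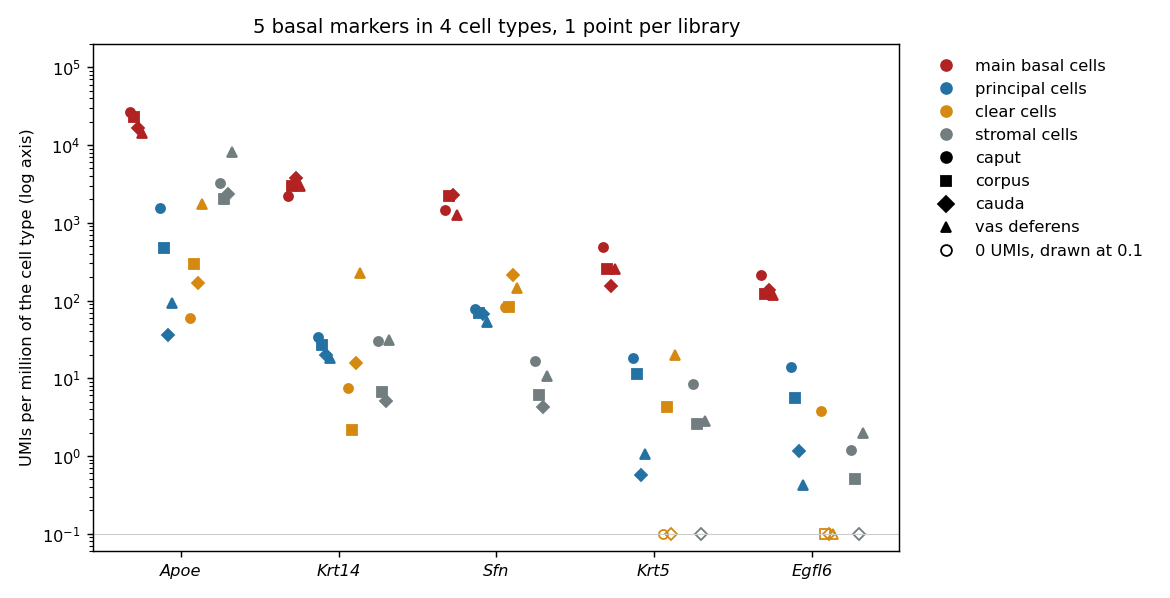
Levels of the 5 markers (UMIs per 1000000 of the cell type, log axis) in main basal, principal, clear and stromal cells, with 1 point per library and open points at 0.1 for 0 UMIs. The 4 main basal values of each gene lie above every value of the compared types, with the narrowest gap for *Apoe*, at 14166 in main basal cells against 8138 in stromal cells of the vas deferens.

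Over the next highest type, mean *Krt14* was 47.2-fold higher (clear cells), *Krt5* 37.3-fold (principal cells), *Sfn* 13.9-fold (clear cells), *Egfl6* 28.0-fold (principal cells) and *Apoe* 5.09-fold (stromal cells). With levels averaged over cells in place of UMIs, the fold of *Krt14* was 10.8 and that of *Krt5* was 13.5. Without the vas deferens library *Krt14* was 111-fold over principal cells, then the next highest type, and *Apoe* was 8.63-fold over stromal cells. Without the caput library *Egfl6* was 52.3-fold over principal cells and at least 50.1-fold over clear cells, which then had 0 UMIs. Of the clear cells, 54 carry a name that refers to *Krt14*, and they had 550 UPM of it against 15.5 UPM in the other clear cells. Without these cells *Krt14* was 116-fold over clear cells. *Egfl6* rested on 1 UMI in clear cells, and the ratio of the summed counts was 212 (95% exact conditional interval 38.0 to 8400, counting error only).

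Single cells were compared after each was thinned at random to 1000 UMIs, which left out 46 of the main basal cells. It also left out 2062 of 3956 principal, 110 of 348 clear and 527 of 2222 stromal cells, so that their shares cover the deeper cells only. *Krt14* was then found in 688 of 871 main basal cells (79.0%, 76.1 to 81.7, Clopper-Pearson), *Sfn* in 73.0%, *Krt5* in 20.7%, *Egfl6* in 13.5% and *Apoe* in 99.2%. Without thinning, the shares were 87.6%, 90.9%, 60.3%, 48.7% and 97.7%. In stromal cells, which do not use these keratins, *Krt14* was found in 0.767% of cells after thinning, and in macrophages in 0 of 110 cells. The limit for macrophages, 2.73% (3 counts of the total), is on detection at 1000 UMIs only. Its shares without thinning were 1.85% of stromal cells and 1.54% of macrophages (2 of 130). Before thinning, the median depth of the cells kept was 5834 UMIs in main basal cells, 3374 in the stromal cells and 3305.5 in the macrophages. At least 3 of the 5 markers were found together in 621 of 871 main basal cells (71.3%), in 0.422% of principal cells, 0.42% of clear cells and 0.354% of stromal cells. None of the 5 was found in 6 main basal cells (0.689%). With the cells divided by depth into 4 groups of 229 or 230, *Krt14* had 2692, 3228, 2582 and 3042 UPM from the shallowest to the deepest group. *Apoe* had 16925, 18101, 24281 and 21148 UPM in the same groups.

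The marker transcription factor *Trp63* (p63) had 124, 31.9, 25.8 and 39.8 UPM and at most 20 UPM in any library of the compared types. *Itga6*, the laminin-binding integrin α6, had 174, 239, 176 and 276 UPM, and reached 100 UPM in clear cells of the vas deferens. With the 5 markers above, all 7 genes were past the 4-fold threshold used here over principal and stromal cells. Over clear cells *Itga6* was 3.71-fold higher, under the threshold, and *Trp63* was 7.08-fold higher, but 1.37-fold with levels averaged over cells and 16.1-fold without the vas deferens library. The cells were named from clusters of the same counts, so that these levels describe the population and are no independent check of its name.

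The population was compared with the 3 types gene by gene. A gene was called higher when its mean level was at least 4 times that of the other type, it was higher in every library and it had at least 20 UMIs, and called lower by the same rule with the types exchanged. The types were clustered on these genes, so that the calls describe the population and no test was made. Of 11510 genes with enough UMIs against principal cells, 904 were higher (7.85%) and 1008 were lower (8.76%). Against clear cells, 481 of 9772 genes were higher (4.92%) and 915 were lower (9.36%), and against stromal cells 592 of 11225 were higher (5.27%) and 1404 were lower (12.5%). Higher than in all 3 types were 131 of 12526 genes (1.05%), and lower than in all 3 were 36 (0.287%). The median fold of all genes was 0.858 over principal, 0.707 over clear and 0.878 over stromal cells, against which the medians of gene lists can be read. Counts of list members called higher or lower can likewise be read against the shares of all genes called. A count near that share says little about its list.

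The 131 genes higher than in all 3 types made up 5.15%, 5.70%, 4.96% and 4.71% of the UMIs of main basal cells and between 0.0937% and 1.06% of those of the compared types. Their levels ran from 4.37 to 20118 UPM with a median of 65.2, and 43 of them lay under 30 UPM. The next highest type was clear cells for 74 of them, stromal cells for 29 and principal cells for 28. Just inside the threshold were *Fermt1* (4.01-fold over the next type), *Mreg* (4.03) and *Arc* (4.09), and those just outside included *Fosl1* (3.95) and *Iffo2* (3.89).

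**Figure D2:**
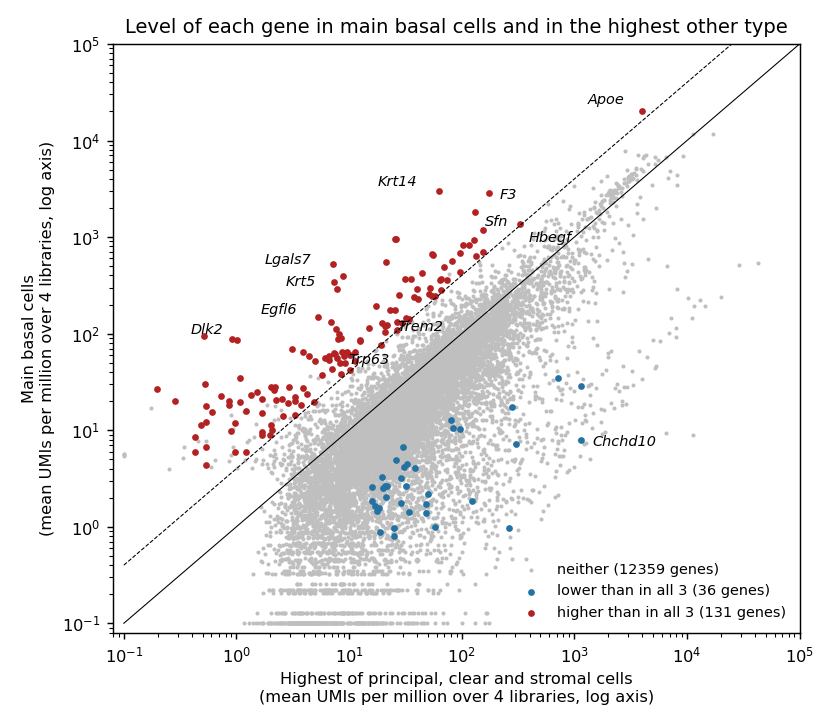
Mean level of each of 12526 genes in main basal cells (vertical) and in the highest of principal, clear and stromal cells (horizontal), in UMIs per 1000000 on log axes, with a solid line at equality and a dashed line at 4-fold. The 131 genes higher than in all 3 types are red and the 36 lower are blue, with *Apoe*, *Krt14*, *F3* and *Sfn* at the top of the red group and *Chchd10* among the blue.

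Promoter sequence was examined for the genes called higher than in all 3 types. AP-1, a dimer of Fos and Jun proteins, binds the heptamer TGAGTCA, whose reverse complement is TGACTCA. Either was present in the 250 bases before the RefSeq start of 1395 of 27025 genes (5.16%). Of the 131 genes only 95 (72.5%) matched a RefSeq window by symbol, so that a share over them is void and is not given. Of the 20 genes with the highest levels 13 matched (65.0%), so that a share over these is void too. The windows of *F3*, *Sprr1a*, *Plaur* and *Glrx* hold the heptamer, while those of the markers *Krt14*, *Krt5*, *Sfn*, *Egfl6* and *Apoe* do not. Nor do those of *Adm*, *Mia*, *Cldn1*, *Tm4sf1*, *Lgals7* and *Ptpn14*. The 4 windows are shown 5′ to 3′ on the strand of the gene (RefSeq, GRCm38.p6), with the heptamer in capitals. They lie at chr3:121723287-121723536 on the + strand (*F3*), chr3:92485882-92486131 on the − strand (*Sprr1a*), chr7:24462233-24462482 on the + strand (*Plaur*) and chr13:75839635-75839884 on the + strand (*Glrx*). The match begins 135 bases before the start in *F3*, 146 and 116 in *Sprr1a*, 69 in *Plaur* and 98 in *Glrx*. A match describes the letters and does not show that a protein is bound there.
F3: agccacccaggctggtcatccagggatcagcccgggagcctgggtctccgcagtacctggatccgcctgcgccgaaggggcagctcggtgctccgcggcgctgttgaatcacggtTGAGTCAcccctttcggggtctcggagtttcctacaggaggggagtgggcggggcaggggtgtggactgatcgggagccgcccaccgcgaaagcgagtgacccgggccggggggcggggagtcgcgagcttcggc
Sprr1a: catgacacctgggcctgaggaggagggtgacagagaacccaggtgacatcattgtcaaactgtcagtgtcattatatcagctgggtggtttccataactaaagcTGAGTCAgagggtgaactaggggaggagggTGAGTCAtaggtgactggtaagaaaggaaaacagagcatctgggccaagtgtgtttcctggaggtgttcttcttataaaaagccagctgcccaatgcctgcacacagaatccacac
Plaur: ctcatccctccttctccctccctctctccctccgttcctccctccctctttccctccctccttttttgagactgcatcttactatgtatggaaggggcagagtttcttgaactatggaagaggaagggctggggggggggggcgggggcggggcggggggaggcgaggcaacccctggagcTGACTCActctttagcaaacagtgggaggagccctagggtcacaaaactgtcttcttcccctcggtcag
Glrx: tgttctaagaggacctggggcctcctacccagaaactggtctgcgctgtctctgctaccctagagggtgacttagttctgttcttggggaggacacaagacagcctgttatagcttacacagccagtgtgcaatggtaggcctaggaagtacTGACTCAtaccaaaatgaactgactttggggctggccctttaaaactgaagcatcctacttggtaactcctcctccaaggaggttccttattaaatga

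These 4 genes were taken from the genes called higher than in all of the compared types. That call requires a higher level in every library, so the direction of their levels follows from how they were chosen. A link between the heptamer and these levels was not tested. *F3*, tissue factor, the membrane receptor that starts blood coagulation, had 2522, 5185, 2608 and 995 UPM, and the highest value elsewhere was 299 UPM in stromal cells of the vas deferens. After thinning it was found in 70.6% of main basal cells (67.5 to 73.6) and in 15.4% of stromal cells. The other basal cells held it too, in 90.2% of the population with few UMIs and 79.2% of that named for high *Notch2*. *Plaur*, the receptor of urokinase, had 290, 1223, 1386 and 410 UPM against at most 148 UPM, again in stromal cells of the vas deferens. *Sprr1a*, a precursor of the cornified envelope of squamous cells, had 587, 855, 1256 and 1162 UPM, and at most 54.3 UPM elsewhere. *Glrx*, the redox enzyme glutaredoxin, had 330, 960, 732 and 718 UPM and at most 121 UPM elsewhere. Of the genes that encode AP-1, *Fosl1* had 461, 654, 600 and 505 UPM against at most 228 UPM in the compared types, whereas *Fos* had 1300, 134, 91.4 and 236 UPM and was lower than in stromal cells (6458, 2221, 1671 and 1423 UPM). *Jun*, at 3200, 1935, 2307 and 4679 UPM, met neither call. The list of immediate early and heat shock genes, which also respond to tissue dissociation, had 7 of 26 members higher than in principal cells, 1 of 26 higher than in clear cells and 2 of 26 lower than in stromal cells, with median folds of 2.17, 1.10 and 0.73.

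Keratins divided into a basal set and a set shared with the other epithelial cells. Of 8 keratins tested, 5 were higher than in principal cells, 4 than in clear cells and 8 than in stromal cells, and *Krt14*, *Krt5*, *Krt15* and *Krt17* were higher than in all 3 types. *Krt15* had 798, 712, 397 and 321 UPM with at most 56.3 elsewhere, and *Krt17* had 682, 978, 847 and 1348 UPM with at most 80.1 elsewhere. *Krt8* and *Krt18*, the keratin pair of simple epithelia, had means of 1813 and 1784 UPM and were higher than in stromal cells only, at 1.92-fold and 2.24-fold over principal and 1.49-fold and 1.08-fold over clear cells. *Krt7* was higher than in principal (21.9-fold, and 38.1-fold without the corpus library) and stromal cells but was at 0.636-fold of clear cells. *Krt16*, outside the list, had 68.2, 62.8, 74.7 and 143 UPM and was at least 42.5-fold higher than in clear cells, which had 0 UMIs (at least 26.9-fold without the cauda library). *Krt6a*, a keratin of stressed epidermis, had 0.821, 1.01, 1.29 and 0 UPM and was too low to be compared.

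**Figure D3:**
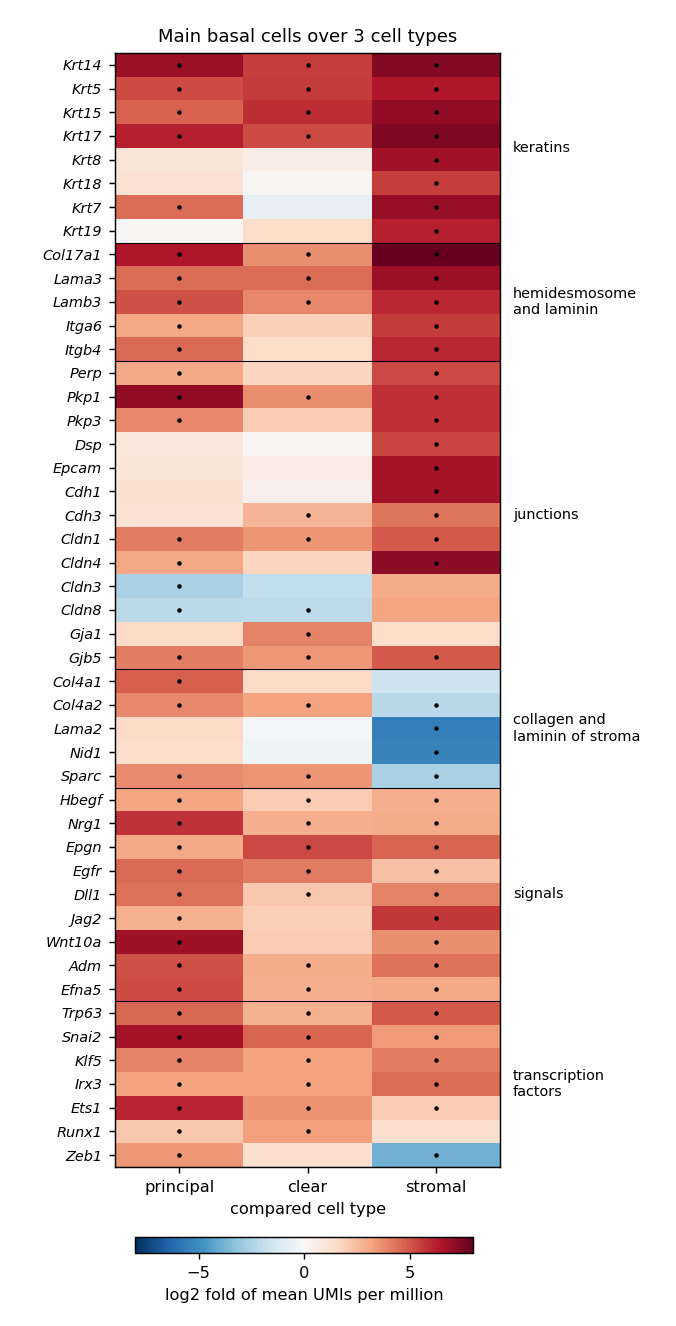
Fold of mean levels of main basal cells over principal, clear and stromal cells (log2, color scale) for genes of keratins, hemidesmosome and laminin, junctions, stromal matrix, signals and transcription factors, with a dot where the gene was called higher or lower. Dots fill all 3 columns for *Krt14*, *Col17a1* and *Trp63*, only the stromal column for *Krt8* and *Dsp*, and the blue fields with dots include the stromal column of *Lama2* and *Nid1* and the principal and clear columns of *Cldn8*.

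Most genes of the hemidesmosome and its laminin were higher than in principal and stromal cells. Of 9 genes, 7 were higher than in principal cells, 3 than in clear cells and 6 than in stromal cells, with median folds of 9.48, 2.80 and 66.5. *Col17a1*, the transmembrane collagen of hemidesmosomes, had 83.8, 77.0, 38.6 and 33.6 UPM and at most 13.4 UPM elsewhere. Its fold over clear cells was 13.2, and 4.59 with levels averaged over cells. That average ended the call, since the direction was then not the same in every library. *Lama3* and *Lamb3*, chains of laminin-332, had 76.4, 66.3, 81.1 and 51.4 UPM and 133, 105, 107 and 98.3 UPM, and in the compared types no library passed 6.68 and 26.7 UPM. *Itgb4*, the partner of integrin α6, was 23.4-fold higher than in principal cells (36.9-fold without the vas deferens library) and 2.73-fold over clear cells. *Plec* and *Cd151*, which link and organize hemidesmosomes, met no call.

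Integrins were higher than in principal cells for 11 of 14 genes, than in clear cells for 4 of 13 and than in stromal cells for 5 of 14, with 3 of 14 lower there. *Itga2* and *Itgb6* were higher than in all 3 types, and *Itgb6*, which with αv activates TGF-β, had 19.7, 61.3, 99.2 and 73.5 UPM with at most 24.7 UPM elsewhere. The basement membrane list split by cell type, with 15 of 22 genes higher than in principal cells, 7 of 21 higher than in clear cells and 2 of 21 lower there, and 4 of 27 higher and 13 of 27 lower than in stromal cells, for median folds of 9.17, 1.95 and 0.218. The collagen IV genes *Col4a1* and *Col4a2* had means of 67.9 and 40.2 UPM in main basal cells, 2.44 and 2.81 UPM in principal cells and 219 and 185 UPM in stromal cells. *Nid1*, which joins laminin to collagen IV, had 0.821, 4.56, 3.86 and 9.74 UPM and a mean of 190 UPM in stromal cells. *Fermt1*, which couples integrins to actin in epithelia, had 107, 54.2, 104 and 42.5 UPM, and against stromal cells its summed counts gave a ratio of 155 (52.7 to 756) on 3 stromal UMIs.

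Of the tight junction genes, 9 of 15 met no call against principal cells and 10 of 15 met none against clear cells. Their median folds were 0.702 and 0.516. *Cldn1*, a claudin of tight junctions, had 530, 735, 730 and 596 UPM with at most 107 in the compared types and was the single tight junction gene of the list higher than in all 3 types. After thinning it was found in 42.8% of main basal cells. The basal cells with few UMIs and those named for high *Notch2* held it in 71.2% and 47.2%. *Cldn4* had 2511, 3864, 4788 and 2223 UPM, which was 8.46-fold over principal cells and 3.36-fold over clear cells. Claudins 3 and 8 went the other way: *Cldn3* had 13.1, 56.2, 222 and 189 UPM against 400, 1034, 835 and 611 UPM in principal cells, and *Cldn8* was lower than in principal and in clear cells. *Tjp3*, a scaffold of tight junctions, had 3.28, 1.01, 2.58 and 1.77 UPM, with 28.3 UPM in principal and 28.0 UPM in clear cells as means. Over the list, 2 of 15 genes were higher and 4 lower than in principal cells, 1 higher and 4 lower of 15 than in clear cells, and 8 of 13 higher and 1 lower than in stromal cells.

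Of 9 desmosome genes, 3 were higher than in principal cells, 1 higher and 1 lower than in clear cells, and 7 higher and 1 lower than in stromal cells. *Pkp1*, a plaque protein of stratified epithelia, had 30.4, 25.8, 38.6 and 11.5 UPM and 131 UMIs in all, against 2 UMIs in principal cells and 0 UMIs in clear and stromal cells. The ratio to principal cells was 123 (33.3 to 1030), and the level was at least 13.0-fold higher than in clear (at least 6.64-fold without the cauda library) and at least 57.5-fold higher than in stromal cells. *Perp*, a desmosomal target of p63, had 808, 852, 876 and 916 UPM and was 8.19-fold higher than in principal cells. *Dsp*, the desmoplakin that all desmosomes need, had a mean of 188 UPM, 98.6 UPM in principal and 179 UPM in clear cells. Of 9 adherens junction genes, 2 were higher than in principal, 3 than in clear and 6 than in stromal cells. *Bcam*, a receptor of laminin α5, was higher than in all 3 types, with 393, 267, 451 and 352 UPM and at most 49.0 UPM elsewhere, but its fold of 10.3 over clear cells was 2.89 with levels averaged over cells. *Epcam*, *Cdh1* and *Cdh16* were higher than in stromal cells only. In gap junctions, *Gja1* (connexin 43) had 257, 242, 176 and 220 UPM and was 15.6-fold over clear cells (63.1-fold without the vas deferens library), but principal cells of the caput had 267 UPM. *Gjb5* (connexin 31.1) had 13.1, 20.8, 32.2 and 26.6 UPM and was higher than in all 3 types. Of the gap junction list, 1 of 7 genes was higher than in principal, 5 of 7 than in clear and 4 of 8 than in stromal cells, and 1 was lower in each comparison.

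Of the ligands of the EGF receptor family, *Hbegf*, *Nrg1* and *Epgn* were higher than in all 3 types. Of the EGF family, 4 of 8 genes were higher than in principal, 4 of 6 than in clear and 4 of 7 than in stromal cells, with median folds of 5.58, 5.90 and 7.50, and 1 was lower than in principal cells. *Hbegf* had 879, 1796, 1660 and 1135 UPM, against at most 541 UPM in clear cells of the cauda, and its fold of 4.17 over clear cells became 3.19 without the corpus library and 3.48 with levels averaged over cells, both below the threshold. The fold of *Nrg1* over clear cells, 7.62, was 3.78 with levels averaged over cells and 13.2 without the vas deferens library. *Nrg1* (neuregulin) had 141, 214, 161 and 189 UPM with at most 69.3 UPM elsewhere, and *Epgn* (epigen) had 19.7, 22.3, 11.6 and 30.1 UPM with at most 7.75 UPM elsewhere. *Egfr*, the receptor of Hbegf and Epgn, varied little between libraries, at 96.1, 99.7, 107 and 110 UPM (103 ± 6.32, SD, n = 4), and no library of the compared types passed 45.4 UPM. *Areg* had 6.57, 35.9, 47.7 and 22.1 UPM and overlapped all 3 types. Of the receptor and feedback list, 5 of 11 genes were higher than in principal, 2 of 11 than in clear and 1 of 11 than in stromal cells, and 1 each was lower than in principal and stromal cells.

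In the Notch pathway the ligands *Dll1*, *Jag1* and *Jag2* were higher than in principal cells. *Dll1* had 51.7, 119, 143 and 264 UPM with at most 80.1 UPM in the compared types, in clear cells of the vas deferens, and its fold over clear cells of 4.48 fell to 3.46 without the cauda library and to 1.49 with levels averaged over cells. After thinning it was found in 12.5% of main basal cells, 25.0% of the basal cells with few UMIs and 11.1% of those named for high *Notch2*. *Jag1* and *Jag2* were 5.26-fold and 7.15-fold higher than in principal cells (*Jag2* 16.9-fold without the corpus library), and *Jag1* was 0.916-fold of clear cells. The receptors did not follow: *Notch1* had 37.0, 33.9, 67.0 and 39.0 UPM at 0.706-fold of principal cells, and *Notch2* was at 0.91-fold of them. *Hes1*, a target of the pathway, had 166, 467, 868 and 1386 UPM and was higher than in clear cells (5.09-fold, and 8.03-fold without the vas deferens library). In all, 3 of 14 Notch genes were higher and 3 lower than in principal cells, 3 higher and 1 lower of 11 than in clear cells, and 3 higher and 3 lower of 13 than in stromal cells. The fold of *Hey1*, a target of the pathway, over clear cells was 4.26, and it was 0.254 with levels averaged over cells and 1.36 without the caput library.

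The Wnt ligand *Wnt10a* had 27.9, 81.5, 176 and 132 UPM against a mean of 0.945 UPM in principal cells, while 52.6 UPM in clear cells of the caput overlapped its caput value. Of the Wnt list, 4 of 24 genes were higher than in principal cells, 1 of 24 than in clear cells and 2 of 26 than in stromal cells, while 1, 3 and 10 were lower in the same order. Over all genes tested, 7.85%, 4.92% and 5.27% were higher and 8.76%, 9.36% and 12.5% were lower in that order. *Fst*, the secreted inhibitor of activins, had 1085, 2087, 2186 and 841 UPM and was 82.9-fold higher than in principal cells. Stromal cells had 15.5, 187, 1383 and 3606 UPM of it, so that the order of the types was not the same in every library. *Inhba*, the activin A subunit, was lower than in stromal cells (a mean of 21.9 against 239 UPM), a call that was lost without the caput library (0.277-fold). The TGF-β and BMP list had 7 of 22 genes higher than in principal, 3 of 21 than in clear and 0 of 23 than in stromal cells, with 2 lower than in clear and 7 lower than in stromal cells. Among the targets of YAP, *Ctgf* had 521, 1043, 805 and 537 UPM and *Cyr61* had 2363, 2020, 1781 and 2594 UPM, both higher than in principal and clear cells and not called over stromal cells (2.50-fold and 3.72-fold). The fold of *Ctgf* over clear cells was 9.62, and it was 2.61 with levels averaged over cells and 21.8 without the vas deferens library. Of that list, 7 of 12 genes were higher than in principal, 3 of 12 than in clear and 0 of 12 than in stromal cells, and *Tead2*, a partner of YAP, was lower than in each type, with 1.64, 1.52, 1.29 and 2.66 UPM.

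*Adm* encodes adrenomedullin, a peptide that widens vessels. It had 901, 1089, 1200 and 1587 UPM, with at most 327 UPM elsewhere, in clear cells of the vas deferens, and its fold of 7.75 over clear cells was 2.97 with levels averaged over cells. *Efna5*, an ephrin, had 73.9, 107, 130 and 149 UPM and at most 60.1 UPM elsewhere. *Vegfa*, the main growth factor of vessels, had 41.1, 40.5, 90.2 and 109 UPM and met no call, at 1.13-fold of principal, 0.727-fold of clear and 0.64-fold of stromal cells. The list of ligands of vessels had 7 of 14 genes higher than in principal, 3 of 14 than in clear and 5 of 14 than in stromal cells, with 1 lower than in clear and 2 lower than in stromal cells. Of the chemokines and cytokines, 5 of 17 were higher than in principal, 6 of 17 than in clear and 1 of 18 than in stromal cells, with 1 lower than in clear cells and 7 lower than in stromal cells. *Cxcl16*, a membrane chemokine, had 224, 372, 501 and 500 UPM and was higher than in principal and stromal cells. Of the cytokine receptors, 4 of 19, 1 of 19 and 2 of 20 were higher in the same order of types, and 2 of 20 were lower than in stromal cells. The shares of all genes called higher were 7.85%, 4.92% and 5.27%, and 12.5% of all genes were lower than in stromal cells.

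Single genes of protease control differed by large folds, while the list went both ways against stromal cells. *Slpi*, an inhibitor of neutrophil elastase, had 164, 434, 817 and 154 UPM and at most 20 UPM elsewhere. *Serpinb5* (maspin) had 181, 214, 200 and 184 UPM with at most 40.1 UPM, and *Serpinb2*, the inhibitor of urokinase, had 57.5, 128, 162 and 25.7 UPM with 0 UMIs in clear cells and 3 in stromal cells, for a ratio of 203 (69 to 987) to the latter. *Plau*, urokinase itself, had 9.03, 27.3, 16.7 and 11.5 UPM, while its receptor *Plaur* was higher than in all 3 types. *Timp3*, an inhibitor of metalloproteinases, was 24.6-fold higher than in principal cells, and stromal cells had a mean of 993 UPM against 348 UPM. The list had 10 of 27 genes higher than in principal cells, 12 of 26 higher and 4 lower than in clear cells, and 7 of 27 higher and 7 lower than in stromal cells. Its median folds were 1.82, 3.28 and 0.534.

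Other genes were named for their level or fold and not as a group. *Lgals7* (galectin-7) had 108, 784, 626 and 564 UPM and at most 12.8 UPM elsewhere, and its mean was 72.3-fold that of clear cells. *Sprr2f* had 1.64, 21.3, 182 and 39.8 UPM and its fold of 8.23 over principal cells fell to 3.15 without the cauda library. *Ly6d* had 640, 257, 210 and 1553 UPM, *Mia* had 489, 392, 309 and 2530 UPM and *Tm4sf1* had 102, 451, 198 and 1793 UPM, each highest in the vas deferens library. With levels averaged over cells, the folds over clear cells of *Ly6d* (12.2), *Mia* (7.21) and *Tm4sf1* (6.35) were 3.19, 1.92 and 3.47, and without the vas deferens library those of *Ly6d* and *Mia* were 286 and 11. The fold of *Tm4sf1* over stromal cells was 4.79 and became 2.24 without that library. *Dlk2*, a membrane protein related to Notch ligands, had 96.9, 46.1, 74.7 and 128 UPM against 1 UMI in clear cells (ratio 118, 21.1 to 4680) and 3 UMIs in stromal cells (ratio 175, 59.4 to 851). Its mean was 85.2-fold that of principal cells, the next highest type (217-fold without the caput library). The fold of its means over clear cells was 200, and at least 26.6 without the cauda library.

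Of the list of epithelial transcription factors, *Trp63*, *Klf5*, *Snai2*, *Ets1* and *Irx3* were higher than in all 3 types. Factors outside the list were not counted, and of these the cofactor *Lmo1* was named for its level and fold. *Klf5*, a factor of proliferating epithelia, had 321, 417, 424 and 526 UPM with at most 80.1 UPM elsewhere. *Snai2* (Slug), known from epithelial to mesenchymal transition and from basal cells of other glands, had 94.4, 90.1, 38.6 and 138 UPM and at most 11.7 UPM elsewhere, and *Zeb1*, of the same program, had 4.11, 8.10, 5.15 and 7.97 UPM and was lower than in stromal cells. *Ets1* had 93.6, 142, 161 and 172 UPM with at most 43.0 UPM, in stromal cells. *Lmo1*, a LIM-only cofactor, had 637, 272, 285 and 164 UPM with at most 18.6 UPM. *Sox9* was called over stromal cells only (a mean of 274 UPM, 98.0 in principal and 144 in clear cells). Over the list, 13 of 29 factors were higher than in principal, 6 of 28 than in clear and 17 of 27 than in stromal cells, with median folds of 3.92, 1.52 and 9.45, and 1 each was lower than in clear cells (*Foxi1*) and in stromal cells (*Zeb1*). Of genes known from stem and progenitor cells, 4 of 10, 5 of 11 and 5 of 12 were higher in the same order, 1, 1 and 4 were lower, and *Lgr5* and *Cd34* were lower than in stromal cells.

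Of genes of lipid transfer, beside *Apoe*, its neighbor *Apoc1* had 349, 464, 613 and 247 UPM and was higher than in clear and stromal cells, while principal cells of the vas deferens had 250 UPM. *Pltp*, which moves phospholipid between lipoproteins, had 486, 266, 216 and 414 UPM, 37.9-fold over principal cells (74.3-fold without the caput library) and 1.62-fold over stromal cells. Of the lipid transfer list, 3 of 18 genes were higher than in principal, 5 of 17 than in clear and 3 of 21 than in stromal cells, and 2, 1 and 5 were lower. Of the genes of cholesterol synthesis, 8 of 15 were lower than in principal cells and 2 of 14 than in clear cells, none was higher than in either, and the median folds were 0.239 and 0.363. *Fdps*, which makes farnesyl diphosphate, had 0.821, 15.2, 39.9 and 44.3 UPM against 285, 214, 415 and 866 UPM in principal cells. Against stromal cells the median of the list was 2.01-fold, 2 of 13 genes were higher and 0 were lower.

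Ribosomal protein genes took a larger part of the UMIs in main basal cells than in any compared type. The 81 genes held 22.9%, 25.8%, 26.3% and 21.3% of the UMIs (24.1% ± 2.38, SD, n = 4), with means of 13.3% in principal, 14.7% in clear and 18.2% in stromal cells, and no library overlapped. Outside the comparisons, immune cells had 26.0%, 25.0%, 26.6% and 28.2%, endothelial cells 20%, 21.6%, 23.5% and 24.2%, and the basal cells named for high *Notch2* 20.5%, 22.9%, 21.9% and 20.6%. By depth the share was 21.7%, 23.3%, 25.0% and 24.8% from the shallowest to the deepest group of the cells. In the 315 basal cells of a population with few UMIs it was 6.83%. The paper reports ribosomal protein genes as the major division among its basal subclusters, together with a difference in UMIs per cell. It calls it unclear whether the low side is biological or technical. The shares of the types were not taken at matched depth. The clusters were made on the same counts, so that the share in main basal cells describes the population. Nuclear genes of mitochondrial proteins (172 genes) held 1.92% ± 0.234 in main basal cells, 3.48% in principal, 5.11% in clear and 2.14% in stromal cells. Main basal cells did not overlap with principal or clear cells in this share, and did overlap with stromal cells.

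**Figure D4:**
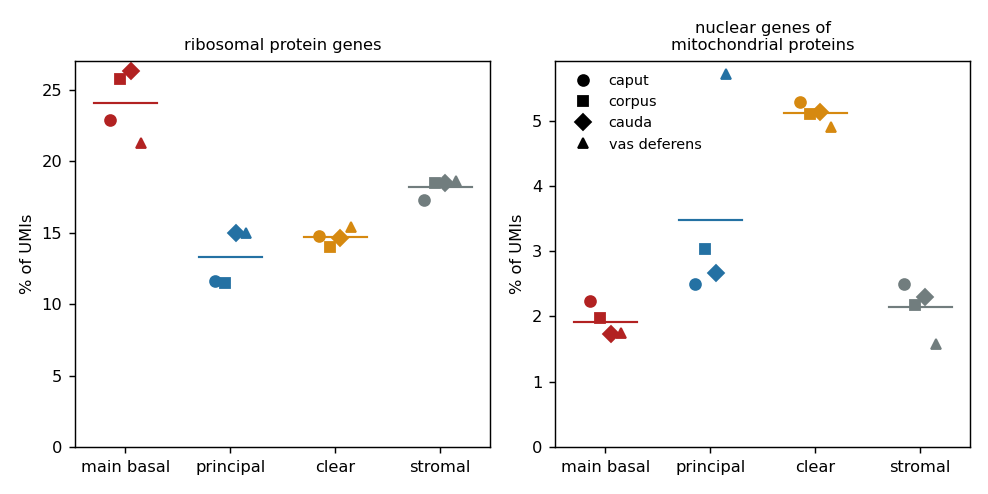
Share of UMIs (%) from 81 ribosomal protein genes (left) and 172 nuclear genes of mitochondrial proteins (right) in each library, with a line at the mean of the 4 libraries. The main basal values of the left panel, from 21.3% to 26.3%, lie above all values of principal, clear and stromal cells, and on the right the clear cells lie highest on average at 5.11%.

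Macrophage antigens were examined because antibodies had linked them to basal cells in earlier reports. The paper reclustered basal with immune cells and found them clearly separated. From this and from staining of tissue it concluded that mature basal cells are not macrophages. Of 18 genes in the list 17 were in the matrix, and only 4 had at least 20 UMIs in main basal cells. Among the members that could be compared, 1 of 5 was higher and 1 lower than in principal cells, 2 of 4 were higher than in clear cells and 2 of 5 than in stromal cells. *Trem2*, a lipid receptor of myeloid cells, had 9.85, 16.2, 194 and 268 UPM and was the single member higher than in all 3 types. Macrophages of all libraries had 374 UPM of it, and after thinning it was found in 8.5% of main basal cells (6.73 to 10.5), 19.1% of macrophages, 0.177% of stromal cells and 0 of 238 clear cells, with a limit of 1.26% (3 counts of the total). Without thinning the shares were 23.2% of main basal cells, 42.3% of macrophages, 0.315% of stromal cells and 2.59% of clear cells. The basal cells named for high *Notch2* held it in 9.03% of cells after thinning (4.89 to 14.9) and 17.6% without. Its fold over clear cells, 5.63, was 3.39 without the cauda library and 32.1 without the vas deferens library, where clear cells had 86.8 UPM. *Tyrobp*, the adaptor through which Trem2 signals, had 6 UMIs in all main basal cells against 729 in macrophages, and after thinning was found in 0.23% of main basal cells and in 71.8% of macrophages. *Csf1r*, the receptor of macrophage growth factor, had 3 UMIs, *Ptprc* (CD45) had 1 and *Itgam* had 0. *Cd68*, a lysosomal protein that many cell types hold at a low level, had 9.85, 11.6, 18 and 10.6 UPM. *Lyz2* (lysozyme) had 0 UMIs in the caput, corpus and cauda and 21.3 UPM in the vas deferens, against 3582 UPM in macrophages.

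**Figure D5:**
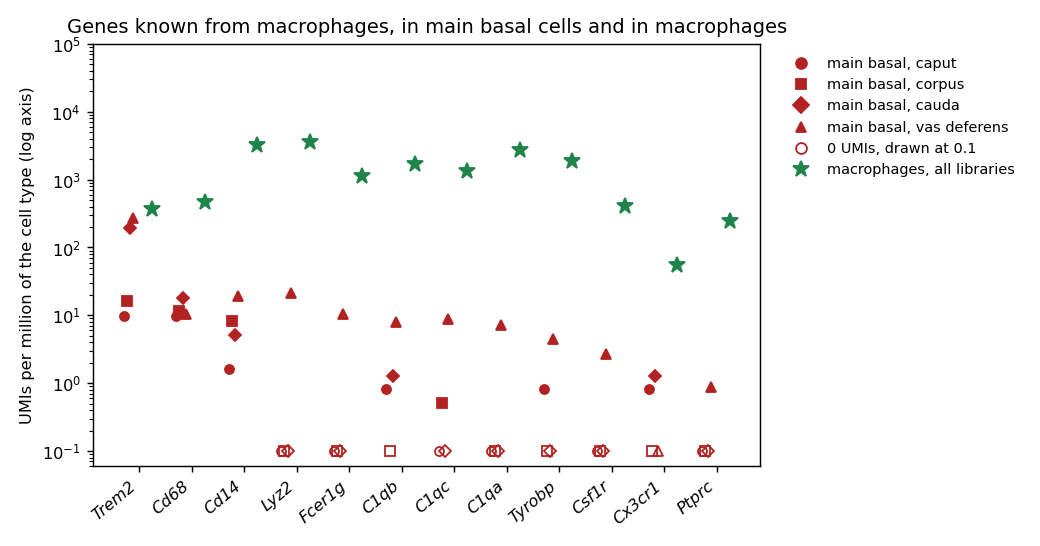
Levels of 12 genes known from macrophages (UMIs per 1000000, log axis) in main basal cells of each library (red) and in macrophages of all libraries together (green stars), with open symbols at 0.1 for 0 UMIs. *Trem2* at 268 in main basal cells of the vas deferens is near the macrophage level of 374, and the other genes of the macrophage set lie more than 10-fold below their stars.

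Markers of other cell types were summed in main basal cells of each library. The 12 principal markers summed to 1017, 1972, 1330 and 1317 UPM in main basal cells and to a mean of 93298 UPM in principal cells, and *Crisp1*, a secreted protein of principal cells, was the most abundant in main basal cells, with 2.46, 1112, 751 and 275 UPM. *Gpx5*, a principal gene of the caput, had 766 UPM in the caput library and 0, 6.44 and 0 UPM in the other libraries, and clear and stromal cells of the caput had 741 and 762 UPM of it. The 8 clear markers summed to 844, 787, 786 and 1142 UPM, with means of 12091 UPM in clear, 691 UPM in principal and 668 UPM in stromal cells, and *Atp6v0c*, a V-ATPase subunit of all cells, was the most abundant in main basal cells. The 8 stromal markers summed to 59.1, 66.8, 58.0 and 236 UPM (11655 UPM in stromal cells, most abundant *Dcn*), and the 5 muscle markers to 72.3, 197, 166 and 279 UPM (most abundant *Acta2*). The 5 endothelial markers summed to 2.46, 16.2, 23.2 and 163 UPM (most abundant *Cldn5*), and the 8 macrophage markers found in the matrix to 11.5, 12.2, 19.3 and 63.8 UPM (most abundant *Cd68*). The lymphoid and dendritic markers summed to 1.64, 5.06, 61.8 and 240 UPM, nearly all from *Cd74*, while *Cd3g* and *Flt3* had 0 UMIs. For clear, stromal, muscle, endothelial, macrophage and lymphoid markers the vas deferens library was the highest. The part of ambient RNA, doublets or such cells in these values was not tested. As called here, 34 of the 917 cells were doublets (3, 18, 3 and 10). The number called in each library was set beforehand by an assumed rate of 0.8% per 1000 cells and is no measured rate. The score chose which cells were called. It found 39.0%, 49.4%, 38.8% and 59.8% of simulated doublets, so that others may remain. A cell barcode that another library also held was carried by 8 of the members.

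Markers of the compared types were counted by the same calls. Of 12 principal markers 9 were lower than in principal cells, among them *Crisp1*, and *Rnase9* with 16.4, 45.6, 2.58 and 0.885 UPM against 1849, 4568, 542 and 3.20 UPM. The call for *Gpx5* rested on the caput, where principal cells had 57990 UPM, and its fold of 0.0133 was 0.311 without that library. Of 7 clear markers that could be compared, 6 were lower than in clear cells, with a median fold of 0.065, and none was lower than in principal or stromal cells. Of 20 genes of the V-ATPase, the proton pump of clear cells, 12 were lower than in clear cells, 2 of 18 lower than in principal cells and 0 of 16 lower than in stromal cells, with median folds of 0.195, 0.549 and 1.07. *Atp6v1g3* had 6.57, 13.7, 0 and 16.8 UPM against 8201, 7462, 7184 and 3318 UPM in clear cells, and *Foxi1*, the factor that specifies such cells, had 1.64, 1.52, 0 and 3.54 UPM against a mean of 589 UPM. *Slc26a3*, an anion exchanger, had 3 UMIs against 630 in clear cells, which were higher by a ratio of 732 (250 to 3560). All 8 stromal markers were lower than in stromal cells, with *Col1a1* at 0.821, 4.56, 3.86 and 6.20 UPM against a mean of 891 UPM. *Hoxc8*, a homeobox gene, had 3 UMIs in main basal cells and 1067 in stromal cells (ratio of the latter 280, 95.4 to 1360).

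Of the 36 genes lower than in all 3 types, *Tead2* was the only one that the gene lists hold. Leaving out 1 library changed the 36 genes to 16 without the corpus, 19 without the cauda, 49 without the vas deferens and 55 without the caput, of which 15, 14, 25 and 26 were among the 36. *Chchd10*, a protein of the mitochondrial intermembrane space, had 3.28, 10.6, 7.73 and 9.74 UPM against means of 309 UPM in principal, 1155 UPM in clear and 70.9 UPM in stromal cells, and no library overlapped. *Atp6v0e2*, a V-ATPase subunit, had 1.64, 1.01, 1.29 and 0 UPM with means of 20.4, 57.7 and 21.2 UPM in the same order. *Syne1*, which ties the nucleus to the cytoskeleton, had 3.28, 3.54, 0 and 0 UPM, and its fold of 0.0473 to principal cells was 0.256 without the caput library. *Dlgap1* and *Snx30* had means of 0.875 and 0.806 UPM, and their calls over clear cells were lost without the cauda library (folds of 0.0362 and 0.0612) and, for *Dlgap1*, without the corpus library (0.056).

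Of the cell cycle genes, *Mki67*, a marker of dividing cells, had 4.93, 0.506, 2.58 and 0.885 UPM and *Top2a* had 4.11, 1.01, 3.86 and 6.20 UPM, and neither met a call. *Ccnd1*, cyclin D1, had 86.2, 184, 267 and 421 UPM and was higher than in clear and stromal cells. Of the cell cycle list, 0 of 19 genes were higher than in principal cells, 3 of 14 than in clear cells and 3 of 17 than in stromal cells, while 1 of 14 was lower than in clear cells and 2 of 17 were lower than in stromal cells. The shares over all genes were 7.85%, 4.92% and 5.27% higher, and 9.36% and 12.5% lower than in clear and stromal cells. The 23 genes of the list summed to 783, 889, 1267 and 1557 UPM in main basal cells, above the highest principal (611 UPM) and clear (618 UPM) library, while stromal cells ranged from 1039 to 1623 UPM.

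Further lists held surface proteins, hormone receptors, transporters and enzymes. Their counts stand beside 7.85%, 4.92% and 5.27% of all genes called higher than in principal, clear and stromal cells. The shares of all genes called lower were 8.76%, 9.36% and 12.5%, and counts near these shares say little about a list. Tetraspanins and syndecans had 4 of 19, 2 of 18 and 4 of 19 genes higher than in principal, clear and stromal cells and 1, 2 and 4 lower, and *Sdc1*, a heparan sulfate proteoglycan, had 282, 181, 281 and 243 UPM with at most 152 UPM elsewhere. Its folds of 4.56, 4.53 and 4.74 were 3.70, 3.75 and 3.77 without the cauda library, all under the threshold, and the first was 10.9 without the caput and 3.50 without the vas deferens library. *Cd44*, the hyaluronan receptor, had 122, 172, 255 and 267 UPM and was higher than in principal and clear cells, where the fold over clear cells of 4.47 was 3.84 without the corpus or without the cauda library and 2.42 with levels averaged over cells. *Cd9* had 577, 841, 1010 and 1505 UPM and was higher than in principal cells only (5.01-fold, 3.95-fold without the vas deferens library). The IGF system had 5 of 10, 5 of 10 and 0 of 13 genes higher, the binding proteins *Igfbp2*, *Igfbp3*, *Igfbp4*, *Igfbp5* and *Igfbp7* in both epithelial comparisons, with 1 lower than in clear cells and 4 of 13 lower than in stromal cells. Of the hormone receptors, 2 of 14, 1 of 13 and 0 of 12 were higher and 2, 4 and 1 were lower. MHC and antigen presentation genes were higher than in principal cells for 4 of 13, and 0 of 12 and 0 of 13 met a call against clear and stromal cells. Water and ion transport genes were higher for 3 of 21, 1 of 14 and 8 of 15 and lower for 3, 2 and 1, and *Aqp3*, a water and glycerol channel, had 0.821, 7.09, 85.0 and 54.0 UPM. Prostaglandin genes were higher for 1 of 11, 0 of 11 and 3 of 12 and lower for 1, 0 and 3, and antioxidant and metallothionein genes for 4 of 24, 0 of 24 and 1 of 25 and lower for 2, 0 and 1.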

How the data were processed

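Single-cell RNA sequencing was made from the caput, corpus and cauda epididymis and the vas deferens, 1 library each. The authors aligned reads with HISAT2 2.0.4 to mm10 with RefSeq transcripts, counted unique molecular identifiers (UMIs) per gene and cell with ESAT, ignored multimapped reads, merged UMIs 1 mismatch apart, kept cells by their UMIs (350 to 14999 in the deposited table), and subtracted ambient RNA with a modified SoupX, and they deposited whole-number counts of 16892 genes in 8880 cells with a table of 34 named populations. Subtraction took 1.99% of the UMIs of main basal cells. Genes that share reads with a near-identical copy may be undercounted.

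Members were the cells of 1 deposited name. The members, the 41 gene lists and the comparisons were chosen with earlier results of these data known. UMIs were summed by cell type and library, divided by the type's total, multiplied by 1000000 and averaged over the 4 libraries with equal weight. A type with 0 UMIs was set to a floor of 3 UMIs over the type. Calls needed a 4-fold difference, 20 UMIs and the same direction in every library with at least 10 cells of both types. No p-value was computed, since each region has 1 library and the types were clustered on the same genes. Intervals are 95%, exact (Poisson, Clopper-Pearson or conditional binomial), and cover counting error only, and the limit beside a count of 0 is 3 counts of the total. That limit is on detection at the thinned depth and not on the share of cells that express the gene. Genes named were the markers, list members, the 20 highest levels and 10 largest folds among genes higher than in all 3 types, and the 5 largest changes per comparison and direction. Some genes that this rule names are not reported here. Genes beside the threshold are named for their position there, and the motif was chosen after values were seen. Doublets were scored against simulated pairs (178 of 8880 cells called, 2.0%) and kept in the main values. The number called was set by an assumed rate of 0.8% per 1000 cells of a library, and the cells with the highest scores were taken. Alternatives were fold and UMI thresholds, other averages, depth limits, other thinning, removal of doublets and of each library, and, added after seeing the data, clear cells without the population named for *Krt14*. The work was done in Python 3.11.15 with scikit-learn 1.9.0 (doublet scores), matplotlib 3.10.9 (figures), pandas 2.3.3, scipy 1.17.1 and numpy 2.4.6.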

Additional observations from a re-analysis of the deposited data

Results flagged for a closer look

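The levels of 2 small populations stood apart from those of the types they are named for. The 15 basal cells named for macrophages (median 1035 UMIs per cell) had *Krt14* at 85.6 UPM, *Apoe* at 210159 UPM, *C1qa* at 5349 UPM, *Lyz2* at 11084 UPM and *Tyrobp* at 2054 UPM, while main basal cells had 2977 UPM of *Krt14* and 6 UMIs of *Tyrobp* in all. They were examined because they lie outside the comparisons and hold macrophage genes above the level of main basal cells. The 54 clear cells named for *Krt14* (median 698.5 UMIs) had *Krt14* at 550 UPM, against 15.5 UPM in the other clear cells, and *Atp6v1g3*, a subunit of the proton pump, at 1031 UPM, against 7247 UPM. They also held *Trem2* at 252 UPM against 1.41 UPM and *Apoe* at 3711 UPM against 245 UPM. They form part of the clear cells in every comparison, and without them the fold of *Krt14* over clear cells was 116 in place of 47.2. No group had 4 samples of 1 kind, so that no search for outlying samples was possible.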

How the results depend on the processing

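The number of genes called depended on the fold threshold. At 2-fold and at 8-fold, 1851 and 501 genes were higher and 2183 and 467 lower than in principal cells, 1012 and 241 higher and 2474 and 350 lower than in clear cells, 1184 and 364 higher and 2424 and 903 lower than in stromal cells, and 318 and 59 higher and 208 and 5 lower than in all 3 types. Without a requirement on direction in each library, 1567 genes were lower than in principal cells and 56 lower than in all 3 types, and with a minimum of 50 UMIs, 583 were lower than in clear cells and 15 lower than in all 3. Leaving out 1 library gave from 16 (without the corpus) to 55 (without the caput) genes lower than in all 3 types, 19 without the cauda and 49 without the vas deferens. Of the 131 genes higher than in all 3 types, 126 were also called without doublets and 85 (64.9%) when levels were averaged over cells. Without the clear cells named for *Krt14*, 140 genes were called and 130 of the 131 were among them. Averaging over cells reversed the folds over clear cells of *Fbln2* (0.583), *Hey1* (0.254) and *Vldlr* (0.733), and ended the calls over clear cells of *Trp63* (1.37), *Dll1* (1.49), *Mia* (1.92), *Bcam* (2.89), *Adm* (2.97), *Ly6d* (3.19), *Hbegf* (3.48), *Nrg1* (3.78), *Cd44* (2.42), *Ctgf* (2.61), *Ccrn4l* (2.76), *1810011O10Rik* (2.90), *Fermt1* (2.96), *Sdc1* (3.24), *Tm4sf1* (3.47) and *Col17a1* (4.59, with the direction not the same in every library), and those over stromal cells of *Tm4sf1* (2.72), *Cd68* (3.15), *Fxyd4* (3.52) and *Sdc1* (3.75). In all, it moved 248 of 629 folds of named genes by over 1.5 times, and 3 of them reversed. *Fermt1* over clear cells was 3.84 without the corpus and 3.15 without the cauda library. The cause was not tested. The fold of *Aqp1* over clear cells ran from 0.75 without the vas deferens library to 6.46 without the caput library.

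Shares of cells with a UMI moved with depth. Without thinning, at 500 UMIs and at 2000 UMIs, *Krt14* was found in 87.6%, 63.6% and 86.4% of main basal cells, *Krt5* in 60.3%, 14% and 36.7%, *Sfn* in 90.9%, 53.3% and 87.5%, and *Egfl6* in 48.7%, 5.5% and 23.3%. *Apoe* was found in 97.7% without thinning and in 97.5% at 500 UMIs. At least 2 UMIs were found in 61.0% (*Krt14*), 4.94% (*Krt5*), 48.2% (*Sfn*), 1.38% (*Egfl6*) and 98.3% (*Apoe*). Folds over clear cells rest on 38 clear cells in the vas deferens, where 1 UMI is 6.68 UPM. The types were compared within each library by direction, and no paired test was made.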

Other observations

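The 315 basal cells of the population with few UMIs (median 900) shared the markers of main basal cells at other levels, with *Krt14* at 2521 UPM, *Krt5* at 262 UPM, *Sfn* at 1088 UPM, *Apoe* at 80195 UPM, *Egfl6* at 469 UPM, *F3* at 11171 UPM, *Slpi* at 1628 UPM and *Cldn4* at 9192 UPM over all libraries together. Ambient subtraction had taken 10.3% of their UMIs, against 1.99% in main basal cells. In the 165 basal cells named for high *Notch2*, *Notch2* was at 242 UPM, *Krt14* at 2920 UPM, *Sfn* at 2112 UPM and *Apoe* at 18425 UPM, and ribosomal protein genes held 21.9% of the UMIs.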
